A study of Mus musculus with 6 samples.

Results

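The genes described here are the interleukins and interleukin receptor chains of the measured set, apart from the helper cytokines. They were taken by name, as gene symbols that begin with Il and a digit, leaving out Il4, Il4ra, Il10, Il22, Il23r, Il17a, Il17f, Il18rap, Il2ra, Il2rb, Il6, Il6ra and Il6st. This left 26 of the 750 genes measured, 16 ligands and 10 receptor chains. The RNA came from CD4 T cells of the mouse liver and was measured by nCounter, a method in which colour-coded probes bind each transcript and are counted singly, with no amplification step. The MASH group held 3 libraries labelled FFC and the control group held 3 labelled Chow, and the series calls the samples biological replicates. MASH usually stands for metabolic dysfunction-associated steatohepatitis and FFC for a diet rich in fat, fructose and cholesterol, although the labels spell out neither. Strain, age, diet length and the way the cells were isolated are not stated in the labels.

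Interleukins are secreted signals that cells of the immune system and its surroundings exchange. They fall into families that share receptor chains: the IL-1 family signals through receptors coupled to Myd88, the common gamma chain family (IL-2, IL-7, IL-15, IL-21) through Jak1 and Jak3, and the IL-12 family through Tyk2 and its partners to Stat4 or Stat3. CD4 T cells make some of them on activation, such as IL-2, IL-21, IL-5 and IL-13. Others, such as IL-12, IL-23, IL-27, IL-1 beta and the IL-1 receptor antagonist, come chiefly from macrophages and dendritic cells, and IL-7 and IL-33 chiefly from stromal and epithelial cells. The receptor chains decide which of these signals a T cell can read.

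Values below are normalised counts, that is, counts on the scale of the deposited table, and differences are log2 of MASH minus control on that scale. The recovered counts before scaling summed to between 623212 and 693640 in the MASH libraries and between 726836 and 900322 in the control libraries. The T cell receptor genes Cd3d, Cd3e and Cd3g were counted in every library, as was the coreceptor gene Cd4, with 1336, 1636 and 1619.6 normalised counts in MASH 1 to 3 and 981, 743 and 939.8 in control 1 to 3. Cd4 (0.79, adjusted p = 0.044) and Cd3g (0.91, adjusted p = 0.043) were themselves called higher on this scale, 2 of 8 T cell genes tested, and neither passed after centring (adjusted p = 0.20 and 0.23). Genes of other cells were counted too. The 6 macrophage genes measured of 16 listed, among them C1qa and Fcgr1, summed to 3690, 4873 and 2109 normalised counts in MASH 1 to 3 and to 987, 940 and 1973 in control 1 to 3. The 9 B cell genes measured of 13 listed summed to between 1803 and 2255 in MASH and between 1686 and 3637 in control. The 9 neutrophil genes measured of 11 listed summed to 1517, 1986 and 1235 in MASH 1 to 3 and to 659, 688 and 1242 in control 1 to 3, and 6 of the 9 were called higher. Of these 9 genes 8 had a mean recovered count under 200. At that level 32.0% of all tested genes were called higher, against 17.4% over all levels. The 8 genes of natural killer and innate lymphoid cells measured of 12 listed summed to between 3664 and 5169.6 in MASH and between 2561 and 3431 in control, with Ncr1 and Klrd1 called higher. The part of these cells in the interleukin values was not tested. None of the measured markers of any cell type was at 0 in any library. Neither were Tg, Ins2, Mbp and Aqp4, genes chiefly of other organs, so a count above 0 cannot by itself show that a cell type was present. In such bulk samples, fewer cells of a type and less RNA per cell cannot be told apart. On the deposited scale the median difference over all tested genes was 0.43 (log2). Differences after centring every library on its median, a step that takes away 0.39, are therefore given as well.

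Genes of 5 ligands were higher in MASH, and no receptor gene passed the test. The 5 were Il23a and Il12b, which encode the subunits of interleukin 23, Il27, which encodes a subunit of interleukin 27, Il17c, an IL-17 family cytokine of epithelial cells, and Il7, the survival factor of naive and memory T cells. In limma's moderated test with Benjamini-Hochberg adjustment over 748 genes, 5 of 16 ligands and 0 of 10 receptors were called higher at 0.05, and none of the 26 lower, against 17.4% of all tested genes called higher and 0.936% lower. At an unadjusted p under 0.05 there were 8 ligands and 2 receptors (Il10ra and Il17rc), against 37.0% of all genes, and voom on the recovered counts called 7 ligands and 1 receptor (Il17rc), against 25.5% of all genes higher. Of the 26 members 24 lay above 0. The median difference was 0.90 over the ligands and 0.59 over the receptors, against 0.43 over all genes tested, or 0.51, 0.20 and 0.04 after centring. After centring 3 of 16 ligands (Il23a, Il27 and Il17c) and 0 of 10 receptors were called higher and none of the 26 lower, against 14.4% of all genes higher and 4.81% lower, while Il12b and Il7 missed the threshold (adjusted p = 0.051 and 0.057).

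**Figure D1:**
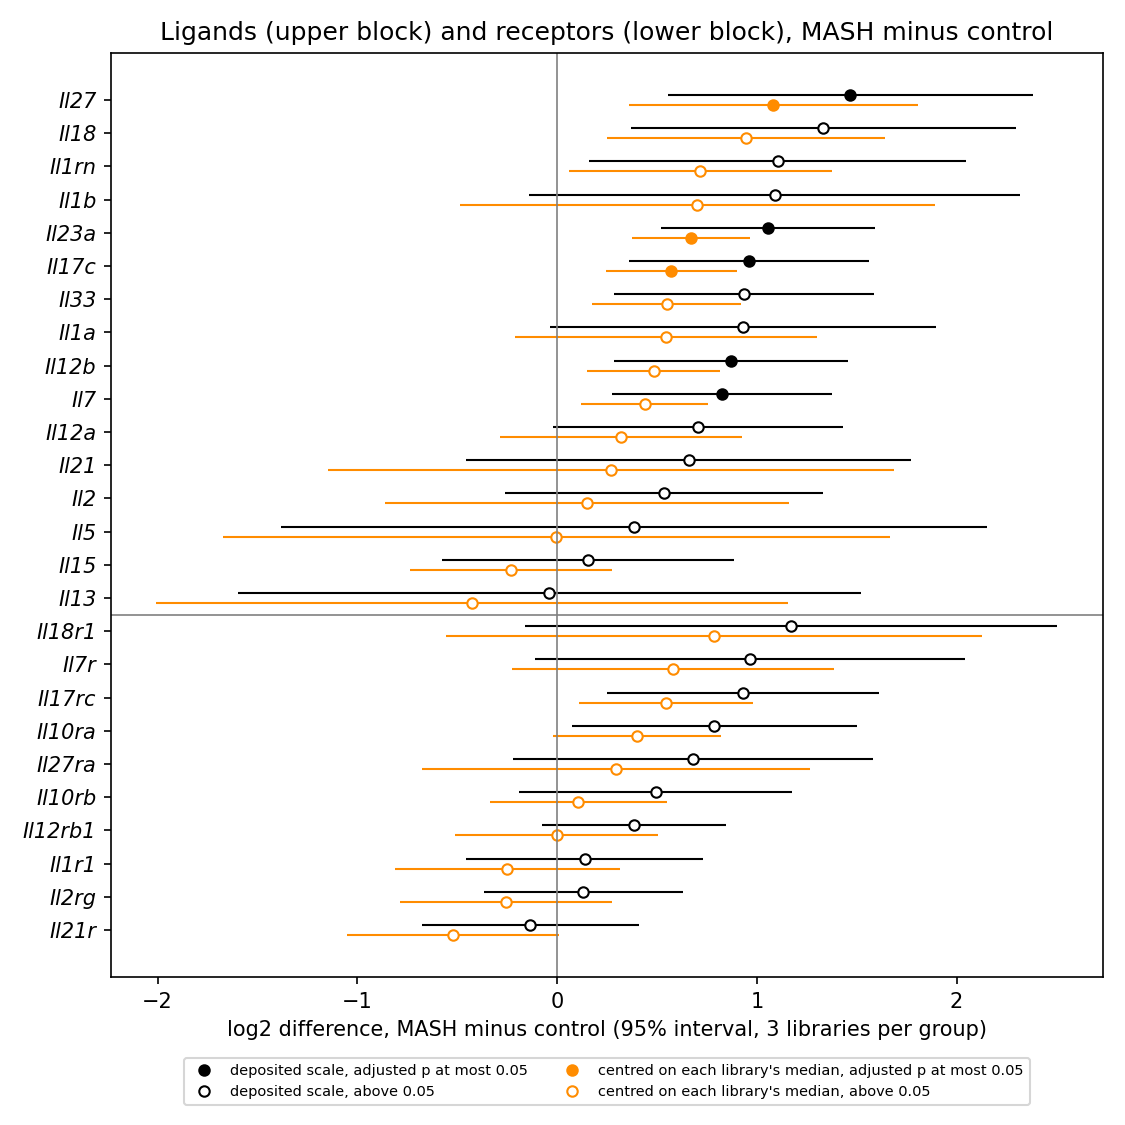
Log2 difference of MASH minus control (x axis) for each interleukin ligand gene (upper block) and receptor gene (lower block), with 95% intervals from 3 libraries per group, on the deposited scale (black) and after centring each library on its median (orange); filled points have an adjusted p of at most 0.05. Black points are filled for Il27, Il23a, Il17c, Il12b and Il7 alone, and all black points but those of Il13 and Il21r lie above 0.

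The 5 calls depended on single libraries, as did most calls over all 748 genes. All 5 failed when MASH 1, MASH 2, control 1 or control 2 was left out. Those fits called few genes of any kind: 1 without MASH 1, 1 without MASH 2, 7 without control 1 and 2 without control 2, against 137 with all libraries. All 5 passed when MASH 3 or control 3 was left out. Without MASH 3 the calls among the 26 numbered 9 ligands and 3 receptors, against 30.6% of all genes called higher in that fit. Without control 3 they numbered 11 and 4, against 38.0%, and without both libraries 12 and 6, against 61.5%, each member higher in MASH. Quantile normalization and cyclic loess, which force the libraries to like distributions or trends, left 0 of the 26 called, against 4.01% and 4.95% of all genes called higher.

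The IL-12 family held 3 of the 5 calls, among 6 members of which 5 had a mean recovered count under 200, a level at which 32.0% of all tested genes were called higher. These dimeric cytokines are built from shared parts: Il12b encodes the chain common to interleukins 12 and 23, Il12a the other chain of interleukin 12 and Il23a that of interleukin 23. Il23a had 262.6, 275.6 and 206 normalised counts in MASH 1 to 3 and 108, 107 and 144 in control 1 to 3. The groups lay apart, with MASH 3 the lowest MASH library and control 3 the highest control library. The difference was 1.06 ± 0.23 (log2, SE, n = 3 each; 2.08-fold; limma adjusted p = 0.030), and 0.67 after centring (adjusted p = 0.018). On recovered counts without scale factors it was the single member called, and there 185 to 223 counts in MASH stood over 131 to 151 in control.

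Il12b had 139, 185 and 118 normalised counts in MASH 1 to 3 and 65.8, 78.5 and 95.9 in control 1 to 3. These values do not overlap either, but the recovered counts do, at 118, 146 and 106 in MASH and 85, 111 and 87 in control. The difference was 0.87 ± 0.26 (adjusted p = 0.048; 0.48 after centring), or 0.09 under quantile normalization. The 250 bases before its annotated start are shown as an IL-12 family promoter among the called genes. They lie at chr11:44399813-44400062 of GRCm38.p6 on the plus strand (sequence from RefSeq). Capitals mark the letters GGAAAA, a form of the site bound by NFAT, or TTTTCC where these letters lie on the other strand.
Il12b: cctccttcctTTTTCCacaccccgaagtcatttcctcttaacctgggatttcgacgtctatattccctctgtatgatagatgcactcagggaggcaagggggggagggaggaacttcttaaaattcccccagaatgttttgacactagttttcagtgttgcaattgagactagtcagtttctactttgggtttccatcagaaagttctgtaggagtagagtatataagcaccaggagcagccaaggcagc
The letters GGAAAA, on either strand, occur 1 time in this window, near its distal end. They occur in 20.4% of 32851 such windows. The AP-1 letters TGANTCA, which read the same on both strands and occur in 6.75% of windows, do not occur in the Il12b window. Windows were held for 18 of the 26 members.

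Il27 was the least counted member. It had 49.5, 46.8 and 33.4 normalised counts in MASH 1 to 3 and 16.2, 8.49 and 26.4 in control 1 to 3, which rest on 42, 37 and 30 recovered counts in MASH and 21, 12 and 24 in control. Its difference was the largest of the 26, 1.47 ± 0.40 (adjusted p = 0.043; 1.08 after centring), with a 95% interval of 0.56 to 2.38. Ebi3, the gene of its partner chain in interleukin 27, differed by 0.17 (adjusted p = 0.72). Il12a had 149.6, 195 and 194 normalised counts in MASH 1 to 3 and 71.2, 112 and 162 in control 1 to 3. Only control 3 reached into the MASH range, and the difference of 0.71 ± 0.32 did not pass (adjusted p = 0.14); it was -0.018 under quantile normalization. Of 11 dendritic cell genes listed 4 were measured, and they summed to 1214, 1698 and 1078 normalised counts in MASH 1 to 3 and to 726, 808 and 1217 in control 1 to 3. Cd83 was the largest of the 4 in every library, with 733, 799 and 744 in MASH 1 to 3 and 518, 642 and 902 in control 1 to 3 (adjusted p = 0.64). Xcr1 alone of the 4 was called higher (1.00, adjusted p = 0.039), against 17.4% of all tested genes. It had only 91.9, 117.6 and 91.3 normalised counts in MASH 1 to 3 and 47.2, 39.6 and 66.1 in control 1 to 3. The part of dendritic cells and macrophages in the IL-12 family values was not tested.

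Il17c and Il7 were also low. Il17c had 63.6, 87.2 and 59.04 normalised counts in MASH 1 to 3 and 30.9, 31.1 and 46.3 in control 1 to 3. The groups were apart by 0.96 ± 0.26 (adjusted p = 0.043; 0.57 after centring, adjusted p = 0.034). Il7 had 104, 113 and 89.1 normalised counts in MASH 1 to 3 and 54.2, 47.4 and 72.7 in control 1 to 3, a difference of 0.83 ± 0.24 (adjusted p = 0.048; 0.44 after centring). Before scaling, Il7 stood at 88, 89 and 80 counts in MASH and at 70, 67 and 66 in control, so that the groups were apart on that scale too, by fewer counts. Of 14 endothelial and stromal genes listed 1 was measured, Vwf, which differed by 0.94 (adjusted p = 0.090).

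Genes that belong chiefly to other organs gave a level to set these counts beside. The 4 such genes used here (Tg, Ins2, Mbp and Aqp4) averaged 138, 154 and 123 recovered counts in MASH 1 to 3 and 105, 99 and 109 in control 1 to 3. The recovered counts of Il27, Il17c and Il7 lay below that mean in every library, those of Il12b near it, and those of Il23a above it in every library. Of these 4 genes 2 were called higher, and the median difference of the 4 was 0.97. After centring that median was 0.58, and Tg (0.66, adjusted p = 0.035) and Aqp4 (0.62, adjusted p = 0.042) were still called higher. In recovered counts 3 of the 4 had groups that lay apart, all higher in MASH. Il27, Il17c, Il7 and Il12b lay under a background floor of 229 normalised counts, the mean plus 2 SD of those 4 genes, in all 6 libraries, and Il23a exceeded it in MASH 1 and MASH 2. With values under the floor raised to it, Il23a differed by 0.16 (adjusted p = 0.44) and the other 4 had no value left to test. Il12a, Il15 and Il27ra, none of them called, also lay under the floor in all 6 libraries. The part of background in these values and in the 5 calls was not tested further. Of the marker genes, 6 of 6 for macrophages and 4 of 9 for neutrophils exceeded the floor in at least 1 library. For natural killer and innate lymphoid cells it was 5 of 8, and for B cells 4 of 9. For dendritic cells it was 2 of 4, for mast cells and basophils 1 of 6, and for endothelium and stroma 0 of 1. Over all tested genes it was 587 of 748.

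**Figure D2:**
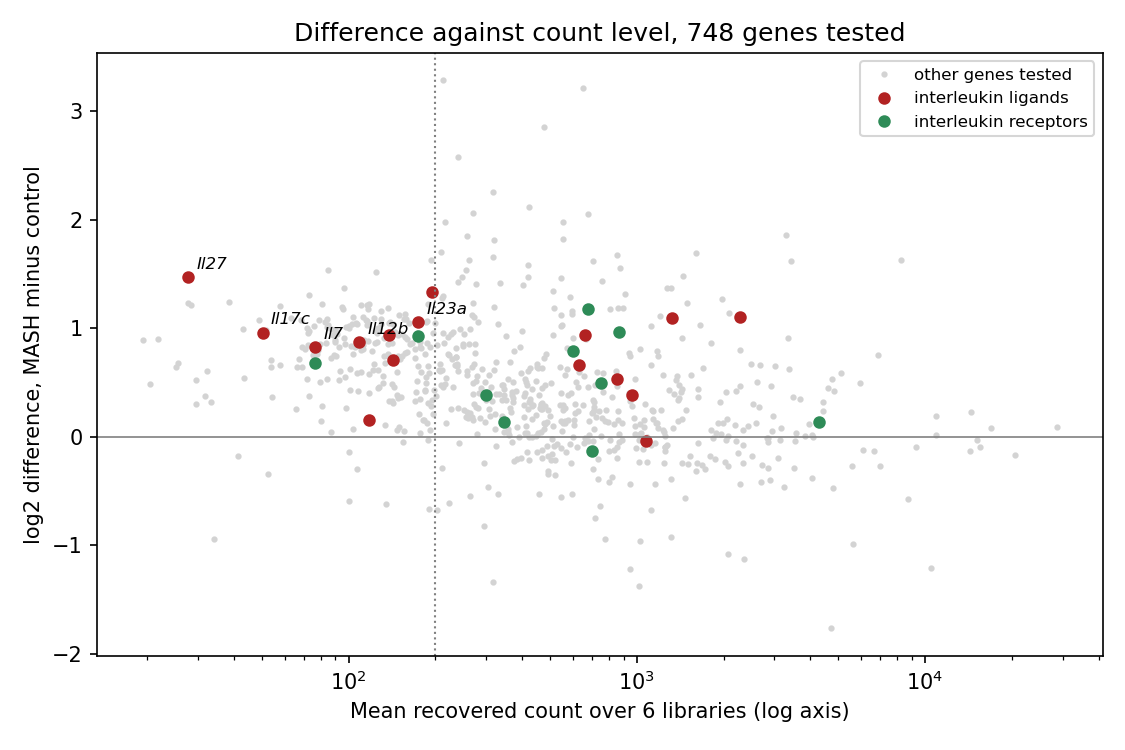
Log2 difference of MASH minus control against the mean recovered count over the 6 libraries (log axis) for all 748 genes tested, with ligands in red, receptors in green, the called members named, and a dotted line at 200 counts. The called members all lie left of the line, in a cloud of other low-count genes that is itself above 0.

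The level of a gene went with its difference. Of the 228 tested genes with a mean count under 200, 32.0% were called higher in MASH, against 11.0% of the 520 at or above it. Among the members, 5 of 11 under 200 counts and 0 of 15 at or above it were called. The median difference of the members under 200 counts was 0.93, against 0.80 over the 217 other genes at that level. Members at or above 200 counts had a median of 0.54, against 0.26 over the 505 other genes there. The split at 200 counts was picked with the data already known.

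The 5 IL-1 family ligands all had differences above 0, and none passed. This family holds the inflammatory cytokines Il1a and Il1b, their natural antagonist Il1rn, the interferon gamma inducing factor Il18 and the alarmin Il33. Il18 had 349.8, 418 and 155 normalised counts in MASH 1 to 3 and 102, 81.3 and 171 in control 1 to 3. MASH 3 lay within the control range, and the difference was 1.33 ± 0.42 (adjusted p = 0.057; 0.95 after centring, adjusted p = 0.059), or 1.77 without MASH 3, where it passed. Il1rn had 3893, 4340.2 and 1829 normalised counts in MASH 1 to 3 and 1116, 1167 and 2386 in control 1 to 3, so that control 3 exceeded MASH 3 here too (1.10 ± 0.41, adjusted p = 0.088).

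The summed macrophage genes were likewise highest in MASH 2 and MASH 1, with MASH 3 and control 3 next and close to each other. Of the 6 macrophage genes 3 were called higher, against 17.4% of all tested genes: C1qa by 2.26, Fcgr1 by 2.12 and C1qb by 1.98. Their part in the values of Il18 and Il1rn was not tested. Il1b did not follow that order, with 1234, 1670.1 and 2568 normalised counts in MASH 1 to 3 and 562, 481 and 2034 in control 1 to 3. Here MASH 3 was the highest library of all and control 3 came next, and the difference of 1.09 ± 0.54 did not pass (adjusted p = 0.18). Il1a had 835, 1001 and 819 in MASH 1 to 3 and 345, 295 and 967 in control 1 to 3 (0.93 ± 0.42, adjusted p = 0.15). Control 3 was the one control library within the MASH range.

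Il33 was the 1 ligand whose groups lay apart without a call. It had 171, 235 and 165 normalised counts in MASH 1 to 3 and 80.5, 84.2 and 139.9 in control 1 to 3. The difference was 0.93 ± 0.28 (adjusted p = 0.054; 0.55 after centring, adjusted p = 0.051), and 0.19 under quantile normalization (adjusted p = 0.37). Il33 exceeded the background floor in MASH 2 alone. With values under the floor raised to it, Il33 differed by 0.0135 (adjusted p = 0.95). Counting Il33, 6 of 16 ligands had groups that did not overlap, all higher in MASH, against 34.4% of all tested genes higher and 4.28% lower. In recovered counts 5 of 16 ligands lay apart, all higher in MASH (these 6 without Il12b), against 20.3% of all genes higher and 22.1% lower on that scale.

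**Figure D3:**
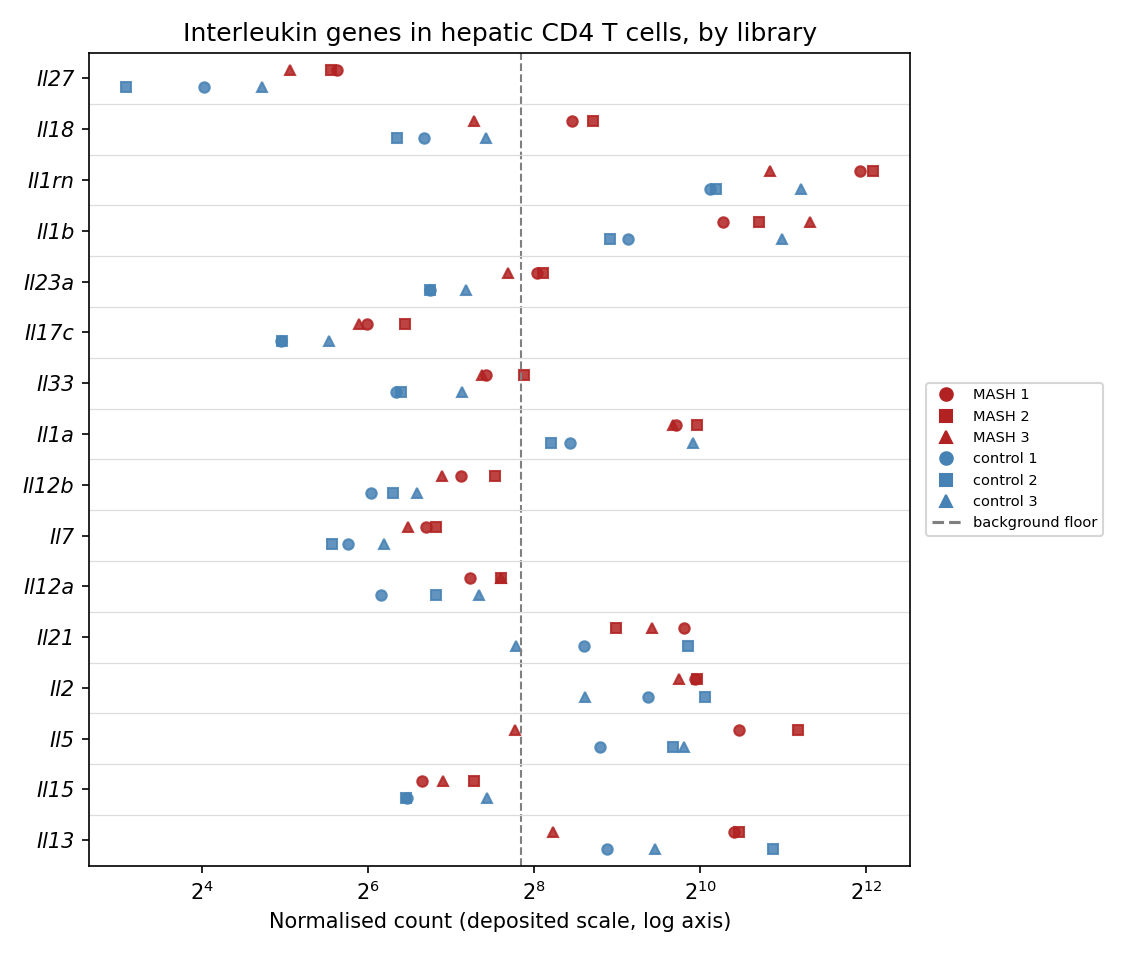
Normalised counts (log axis) of the 16 ligand genes in each library, MASH (red) above control (blue), with the symbol giving the replicate and the dashed line the background floor of 229. Il27, Il23a, Il17c, Il33, Il12b and Il7 show groups that do not overlap, and all but Il23a and Il33 of these lie wholly left of the line.

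The cytokines that CD4 T cells themselves make on activation varied widely among the libraries of at least 1 group, and none of the 4 passed the test between the groups. IL-2 is the autocrine growth factor of T cells, IL-21 supports B cell help, and IL-5 and IL-13 are the type 2 cytokines of eosinophils and of epithelium. Il2 and Il21 lie near each other on chromosome 3, as Il5 and Il13 do on chromosome 11. The 250 bases before each annotated start are shown because the genes of each pair had the same lowest library. Capitals mark the letters GGAAAA or TTTTCC, as above, and all 4 sequences come from RefSeq (GRCm38.p6). They lie at chr3:37125955-37126204 (minus strand) for Il2, chr3:37232637-37232886 (minus) for Il21, chr11:53720544-53720793 (plus) for Il5 and chr11:53634703-53634952 (minus) for Il13.
Il2: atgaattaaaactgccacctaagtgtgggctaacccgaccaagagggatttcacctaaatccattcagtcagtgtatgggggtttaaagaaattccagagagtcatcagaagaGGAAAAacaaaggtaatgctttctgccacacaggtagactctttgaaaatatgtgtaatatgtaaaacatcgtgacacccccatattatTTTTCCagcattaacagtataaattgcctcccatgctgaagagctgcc
Il21: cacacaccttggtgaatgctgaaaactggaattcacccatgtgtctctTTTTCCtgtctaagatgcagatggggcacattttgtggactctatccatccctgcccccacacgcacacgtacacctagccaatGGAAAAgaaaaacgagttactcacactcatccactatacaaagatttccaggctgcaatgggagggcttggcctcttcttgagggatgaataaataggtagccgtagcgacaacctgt
Il5: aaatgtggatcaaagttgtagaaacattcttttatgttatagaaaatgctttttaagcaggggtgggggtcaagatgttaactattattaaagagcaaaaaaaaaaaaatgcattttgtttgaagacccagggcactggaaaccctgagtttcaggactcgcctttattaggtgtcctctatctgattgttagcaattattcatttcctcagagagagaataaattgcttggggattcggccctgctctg
Il13: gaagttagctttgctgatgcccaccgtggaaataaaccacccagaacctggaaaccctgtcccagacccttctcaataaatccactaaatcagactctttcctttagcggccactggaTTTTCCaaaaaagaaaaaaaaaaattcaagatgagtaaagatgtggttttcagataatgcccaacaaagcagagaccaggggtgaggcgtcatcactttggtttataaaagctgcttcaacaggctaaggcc
NFAT is the factor that calcium signals from the T cell receptor activate. The letters GGAAAA, on either strand, occur 2 times in the Il2 window, 2 times in the Il21 window, 1 time in the Il13 window and 0 times in the Il5 window. The AP-1 letters occur in none of the 4. The shorter letters GGAAA were not searched for, and the Il5 and Il13 windows hold them outside the capitals. Among the 18 members with a window, 8 held GGAAAA or TTTTCC in at least 1 window. Some members have several windows, so this share of genes cannot be set against the 20.4% of single windows. A match of letters is a description and not a bound site.

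Il2 had 981, 1000.04 and 859.9 normalised counts in MASH 1 to 3 and 665, 1064 and 392 in control 1 to 3. The MASH libraries sat close together inside the range of the controls, with control 2 the highest library and control 3 the lowest. Its difference was 0.54 ± 0.35 (adjusted p = 0.30; 0.15 after centring). Il21 had 894, 506 and 684 in MASH 1 to 3 and 389, 922 and 219 in control 1 to 3, again with control 2 highest and control 3 lowest (0.66 ± 0.49, adjusted p = 0.36; 0.27 after centring). The SD of the log2 values of Il21 was 0.41 in MASH and 1.04 in control, and that of Il2 was 0.12 in MASH and 0.72 in control.

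Il5 had 1413, 2312 and 218 normalised counts in MASH 1 to 3 and 443, 813 and 894 in control 1 to 3. MASH 3 was the lowest of the 6 libraries and MASH 2 the highest. The difference was 0.38 ± 0.77 (95% interval -1.38 to 2.15, adjusted p = 0.76), -0.0034 after centring, and 1.40 without MASH 3, where it passed (n = 2 in MASH). Il13 had 1353, 1416 and 299 in MASH 1 to 3 and 469.6, 1882 and 701 in control 1 to 3. MASH 3 was again lowest, but control 2 was highest, and the difference of -0.04 ± 0.68 (95% interval -1.60 to 1.52) turned to 0.70 without MASH 3. The 6 mast cell and basophil genes measured of 9 listed summed to 664, 857 and 554 normalised counts in MASH 1 to 3 and to 343, 359 and 478 in control 1 to 3. Fcer1a and Tpsb2 of these 6 were called higher. All 6 genes had a mean recovered count under 200, where 32.0% of all tested genes were called higher. Their part in the values of Il5 and Il13 was not tested.

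**Figure D4:**
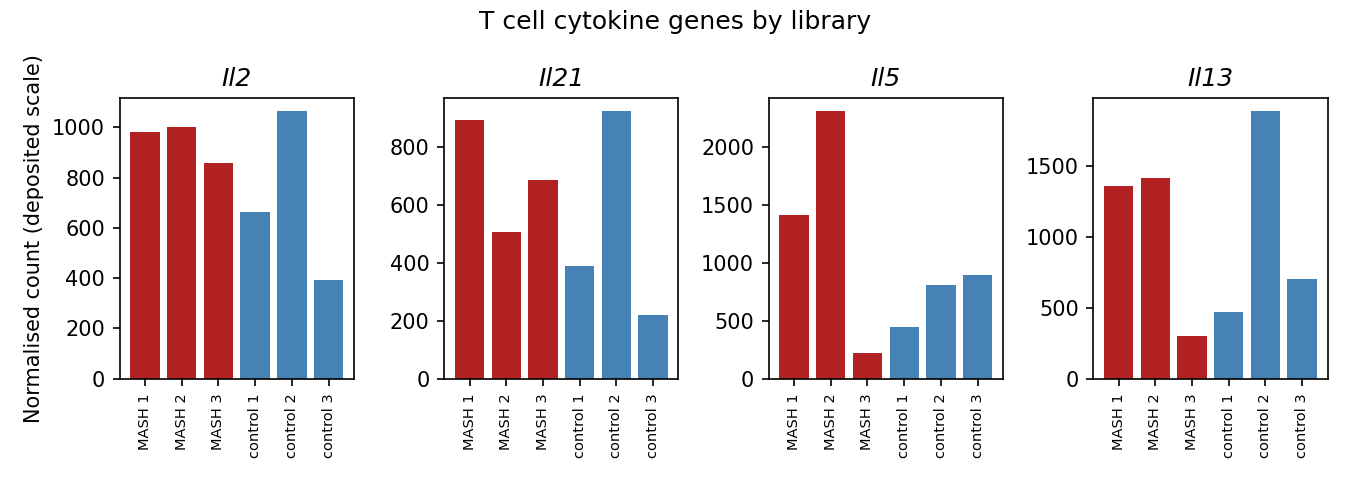
Normalised counts (deposited scale, axis from 0) of Il2, Il21, Il5 and Il13 in each MASH (red) and control (blue) library. Control 2 is highest for Il2, Il21 and Il13, and MASH 3 is lowest for Il5 and Il13.

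Il15, a survival factor of memory and killer lymphocytes that myeloid cells present, turned its direction with the scale. It had 100.1, 154 and 119 normalised counts in MASH 1 to 3 and 88.2, 87.7 and 172 in control 1 to 3. The groups overlapped, with control 3 the highest library. The difference was 0.16 ± 0.32 (adjusted p = 0.77), -0.23 after centring and -0.62 under quantile normalization (adjusted p = 0.096).

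Among the receptors, the chains by which CD4 T cells read survival and growth signals gave no call. Il2rg, the common gamma chain, had 4142, 4023 and 5167 normalised counts in MASH 1 to 3 and 3819, 3719 and 4604 in control 1 to 3. Its difference was 0.13 ± 0.22 (95% interval -0.37 to 0.63, adjusted p = 0.70), and -0.25 after centring. Il21r, the specific chain for interleukin 21, had 729, 714 and 496 in MASH 1 to 3 and 750.4, 739 and 614 in control 1 to 3. It was the one receptor below 0, at -0.13 ± 0.24 (95% interval -0.68 to 0.41, adjusted p = 0.73; -0.52 after centring, adjusted p = 0.13). Both sets of values overlapped between the groups.

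Il7r, the receptor that keeps naive and memory T cells alive, had 1184, 1626 and 772 normalised counts in MASH 1 to 3 and 373, 436 and 1225 in control 1 to 3. Control 3 exceeded MASH 1 and MASH 3, and the difference was 0.97 ± 0.47 (adjusted p = 0.17; 0.58 after centring) and it passed without control 3. Set beside its ligand, Il7 differed by a like amount with a smaller standard error, 0.24. Il18r1, the ligand-binding chain of the interleukin 18 receptor, had 506, 877 and 1549 in MASH 1 to 3 and 251, 249 and 959.6 in control 1 to 3. MASH 3 and control 3 were the highest of their groups, and the difference was 1.17 ± 0.58 (adjusted p = 0.18), or 1.82 without control 3, where it passed. Its partner chain Il18rap, which was left out of the set by name, had recovered counts of 195, 307 and 557 in MASH 1 to 3 and 148, 134 and 189 in control 1 to 3, and rose by 1.54 (adjusted p = 0.043; 1.15 after centring, adjusted p = 0.086).

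Il17rc and Il12rb1 were the 2 of 10 receptors whose groups did not overlap, both higher in MASH, against 34.4% of all genes. Il17rc, a chain of the receptor for interleukins 17A and 17F, had 205, 311 and 205 normalised counts in MASH 1 to 3 and 119, 92 and 172 in control 1 to 3. Its difference was 0.93 ± 0.30 (adjusted p = 0.058; 0.54 after centring, adjusted p = 0.075), and it also lay apart in recovered counts. It exceeded the background floor in MASH 2 alone. With values under the floor raised to it, Il17rc differed by 0.15 (adjusted p = 0.60). Il12rb1, the chain shared by the receptors of interleukins 12 and 23, had 365, 329.98 and 314 in MASH 1 to 3 and 268, 266 and 238 in control 1 to 3, a difference of 0.39 ± 0.20 (adjusted p = 0.20). In recovered counts it stood at 310, 261 and 282 in MASH and at 347, 376 and 216 in control, which overlap, and after centring the difference was -0.0019. Il23r, its partner in the interleukin 23 receptor, differed by 0.92 (adjusted p = 0.057).

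The interleukin 10 receptor chains overlapped between the groups. Il10ra, the ligand-binding chain, had 737, 986 and 651 normalised counts in MASH 1 to 3 and 385, 347 and 689 in control 1 to 3 (0.79 ± 0.31, adjusted p = 0.10; 0.40 after centring). Il10rb, its widely used partner, had 1001, 1169 and 569 in MASH 1 to 3 and 602, 557 and 713 in control 1 to 3 (0.49 ± 0.30, adjusted p = 0.27). In each, control 3 exceeded MASH 3 and the other MASH libraries exceeded every control. Il1r1, the signalling receptor of interleukin 1, had 316, 357 and 398 in MASH 1 to 3 and 234, 366 and 391 in control 1 to 3, with a difference of 0.14 ± 0.26 (adjusted p = 0.74) that was -0.25 after centring. Il27ra, the specific chain for interleukin 27, had 114, 119 and 52.4 in MASH 1 to 3 and 62.7, 75.7 and 36.4 in control 1 to 3. MASH 3 and control 3 were the lowest of their groups, and the difference of 0.68 ± 0.39 did not pass (adjusted p = 0.24).

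**Figure D5:**
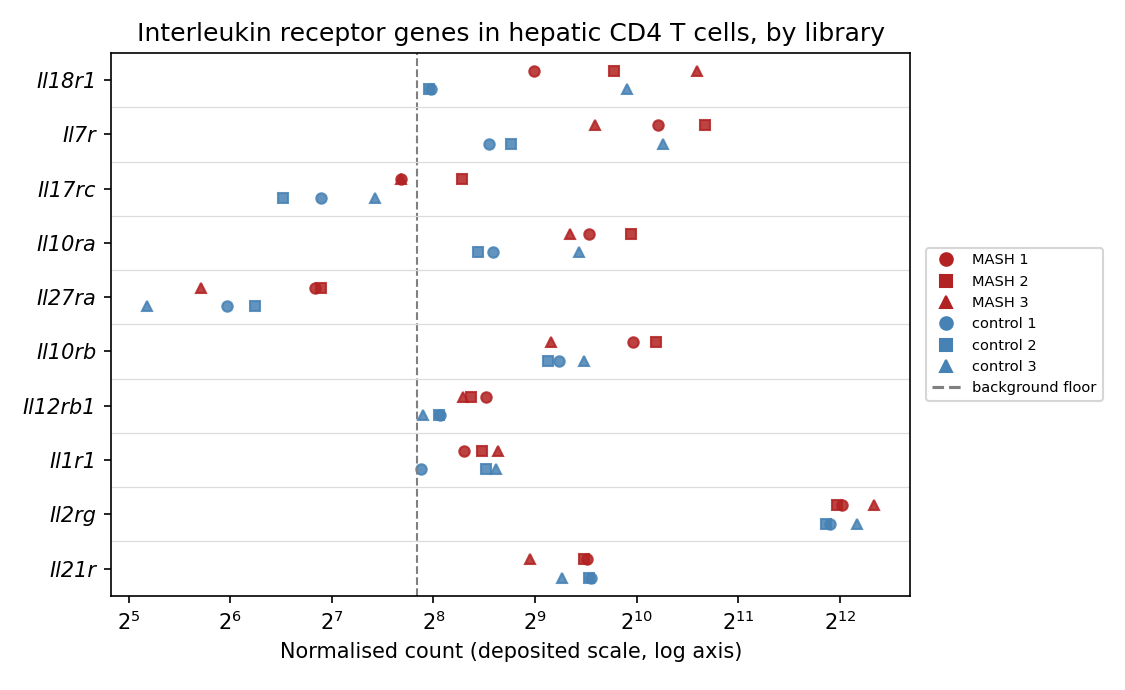
Normalised counts (log axis) of the 10 receptor genes in each library, MASH (red) above control (blue), with the symbol giving the replicate and the dashed line the background floor of 229. Groups are apart for Il17rc and Il12rb1 alone, and control 3 lies within the MASH range for Il7r, Il18r1, Il10ra, Il10rb, Il1r1, Il2rg and Il21r.

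A wider list held signal transducers, inflammasome genes and related cytokines and receptors outside the 26, and 29 of its genes were tested. Of these 29, 3 were called higher and none lower, against 17.4% and 0.936% of all genes, and their median difference was 0.28, against 0.43 over all genes. The 3 were Stat4, the transducer of interleukin 12, at 1.19 (adjusted p = 0.036; 0.80 after centring), Nlrp3, the sensor that starts the cleavage of interleukins 1 beta and 18, at 1.07 (adjusted p = 0.045; 0.68 after centring), and Csf2, the gene of the growth factor GM-CSF, at 1.48 (adjusted p = 0.030; 1.09 after centring, adjusted p = 0.081). The protease gene Casp1, which cuts both cytokines, differed by 1.13 (adjusted p = 0.071). After centring 2 passed as higher and 2 as lower, against 14.4% and 4.81% of all genes, the lower ones being Jak2 at -0.63 (adjusted p = 0.023) and the feedback inhibitor Socs1 at -0.77 (adjusted p = 0.016). The shared kinases Jak1 and Jak3 differed by -0.08 (adjusted p = 0.87) and 0.47 (adjusted p = 0.18), and the IL-1 family adaptor gene Myd88 by 0.28 (adjusted p = 0.33).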

How the data were processed

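Hepatic CD4 T cell RNA was extracted with a kit, per the labels' protocols, and measured by nCounter, per the series title. The table the authors deposited holds log2 values of 750 genes in 6 libraries. Their normalization, background handling and panel are not stated there. In every library 100% of the values, taken to the linear scale, were whole multiples of 1 factor to within 0.02. The factors were 1.18, 1.26 and 1.11 in MASH 1 to 3 and 0.774, 0.707 and 1.10 in control 1 to 3. The recovered counts have medians of 367.5, 393.5 and 319 in MASH and 378.5, 417.5 and 360 in control, and 3 libraries per group limit the precision.

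Groups came from the sample titles. All 748 genes with a mean of at least 20 normalised counts entered limma 3.58.1 (R 4.3.3) in 1 fit with no covariate, two-sided, with Benjamini-Hochberg adjustment at 0.05. All 26 member symbols are current RefSeq symbols, and the rule for named genes (calls, groups apart, largest and smallest differences, main receptor chains and ligands) took all 26. The members and lists were chosen with earlier results of these data known. The limma fit was also run on simulated data for this comparison (748 genes, 200 changed, 50 simulations). There limma recovered 23.8%, 62.2% and 93.5% of genes changed 1.5-fold, 2-fold and 4-fold, with 3.41% false among calls. These percentages belong to the simulated data alone, and the share of false calls in the measured libraries was not tested. Alternatives were a pseudocount of 10, other filters, centring, quantile normalization, cyclic loess, voom, a background floor, a replicate block, libraries left out and trended variance. Counts without scale factors were added after the data were seen. Probe sequences were not used here, probes can differ in efficiency, so that counts of different genes are set side by side as description alone, and some genes are left out of the lists and not reported.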

Additional observations from a re-analysis of the deposited data

How the results depend on the processing

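The 137 genes called among all tested (94.9% of them higher in MASH) became 144 after centring (75.0% higher), 53 under quantile normalization, 65 under cyclic loess, 216 with voom, 10 with the background floor, 475 without control 3 and MASH 3, and 1 to 290 with 1 library left out. On counts without scale factors 101 were called, 45.5% higher. The 5 ligand calls became 2 with a pseudocount of 10 and with trended, robust variance, 3 after centring, 1 on counts without scale factors, 12 without control 3 and MASH 3, and 0 to 11 with 1 library left out. Quantile normalization, cyclic loess and the background floor gave 0 ligand calls. The 0 receptor calls became 1 with voom, 6 without control 3 and MASH 3, and 0 to 4 with 1 library left out. With the replicate number as a block, 1 gene of all tested, 0 ligands and 0 receptors were called. Same-numbered libraries deviated from their group means with correlations of 0.019, -0.22 and -0.042. Between libraries of different number the correlations ran from -0.29 to 0.33. With 3 libraries per group these values cannot settle whether same-numbered libraries were paired, and the titles give only the number. The cause of these changes was not tested, and some of the fits also held fewer genes or libraries.

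Signs turned for members without a call. After centring the differences were -0.0034 for Il5, -0.23 for Il15, -0.25 for Il1r1, -0.0019 for Il12rb1 and -0.25 for Il2rg. Quantile normalization gave -0.018 for Il12a, -0.62 for Il15, -0.34 for Il1r1, -0.11 for Il12rb1, -0.050 for Il27ra and -0.052 for Il2rg. Cyclic loess gave -0.048 for Il12a, -0.63 for Il15, -0.27 for Il1r1, -0.084 for Il12rb1 and -0.12 for Il27ra. With voom the values were -0.048 for Il15, -0.062 for Il1r1 and -0.067 for Il2rg. Counts without scale factors gave -0.10 for Il5, -0.33 for Il15, -0.35 for Il1r1, -0.10 for Il12rb1 and -0.35 for Il2rg. Il13 stood at 0.56 without control 3 and MASH 3. With 1 library left out, Il13 ranged from -0.47 to 0.70, Il5 from -0.30 to 1.40, Il15 from -0.0096 to 0.48, Il1r1 from -0.091 to 0.28 and Il21r from -0.23 to 0.048. The called genes kept their direction in every alternative that could be fitted, with differences of 0.16 to 1.33 for Il23a, 0.69 to 2.03 for Il27, 0.15 to 1.26 for Il17c, 0.075 to 1.16 for Il12b and 0.022 to 1.09 for Il7, and highest adjusted p of 0.437, 0.185, 0.416, 0.771 and 0.929 in that order.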
